A study of Xenopus tropicalis with 24 samples.

Results

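The genes described here carry glucose into the cell, break it down to pyruvate and lactate, and rebuild it. They were taken as a fixed list of 39 gene symbols covering glycolysis, gluconeogenesis and the entry of pyruvate into the mitochondrion. A gene of the count table was a member when its name equalled a listed symbol, or did so once a final dot and digits were removed. The rule found 36 of the 39 among 26531 genes. The genes pfkl, g6pc1 and pdk2 were not found by it and are not analysed here, and pyruvate carboxylase was found as pc.2. The rule itself uses no measured value.

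RNA was counted in 2 organs, intestine and tail, of the frog Xenopus tropicalis at larval stage 54, before the climax of metamorphosis. Animals were wild type (WT) or labelled TRDKO, in which both thyroid hormone receptor genes are knocked out, and the design asks which gene responses to the hormone need those receptors in each organ. Each genotype was sampled without hormone (control) and with T3, the active thyroid hormone, at 5 nM for 18 hours at 25 °C, which gave 8 groups of 3 libraries, 24 in all. The labels give neither the lesions of TRDKO nor whether replicates are separate animals or pools. The p-values therefore rest on the spread among these libraries alone, and that spread may be technical.

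Glycolysis turns glucose into pyruvate. Hexokinase traps the sugar as glucose 6-phosphate, phosphofructokinase commits it, and pyruvate kinase makes the last step. Gluconeogenesis runs the shared steps backwards and passes the irreversible ones with its own enzymes, which are pyruvate carboxylase, phosphoenolpyruvate (PEP) carboxykinase, fructose bisphosphatase and glucose 6-phosphatase. Vertebrate skeletal muscle, the bulk of a tadpole's tail, is built for rapid glycolysis, while absorptive intestine takes up dietary sugar and in mammals can make glucose. Most steps have several enzymes from related genes, and which of them is used differs between tissues.

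Library totals ran from 17577407 to 24699154 fragments, of which the 36 members held 0.892% to 2.39%. Replicates lay close together, and their biological coefficient of variation was 6.28% for intestine and 1.68% for tail. In the tail WT control group, no spread beyond sampling noise was detected between replicates 1 and 3 (mean chi-square 1.013 over genes). Replicates 1 and 3 were therefore summed into 1 sample, which gives that group n = 2 where every other group has n = 3. Intestine TRDKO T3 replicate 3 stood apart, with mean chi-square values of 22.79 to 27.59 against its group. The other pairs of libraries, leaving out the summed pair, gave 1.046 to 2.148. Summed absorptive enterocyte markers reached 49023 to 51601 CPM (counts scaled to a common library size) in intestine WT control and 56.4 to 57.0 in tail, where fabp1, cdx1 and cdh17 were at 0. Summed skeletal muscle markers reached 2612 to 2741 and 55939 to 57484 CPM in the same order, with myod1, myog and ttn at 0 in the intestine group. Transcripts of both receptor genes were counted in every TRDKO library. In intestine thra stood at 8.25 to 10.7 CPM in WT control and 5.00 to 5.55 in TRDKO control, and thrb at 3.28 to 3.40 and 4.94 to 5.60. With T3 intestine thrb was at 65.9 to 67.4 CPM in WT and 28.5 to 42.1 in TRDKO. Intestine thra with T3 was at 7.07 to 9.18 CPM in WT and 3.74 to 14.8 in TRDKO, lowest in the replicate that stood apart. In tail thrb was higher in TRDKO control, at 23.8 to 26.1 CPM, than in WT control, at 6.52 to 8.0. With T3 tail thrb was at 51.0 to 53.6 CPM in WT and 47.7 to 50.5 in TRDKO. As the labels describe no lesion, these counts do not check the knockout.

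Tail and intestine differed in the level of nearly every member. In WT without hormone, 21 of 36 members were higher in tail, 14 were higher in intestine and 1, ldha, did not pass at an adjusted p under 0.05 (edgeR's quasi-likelihood test, Benjamini-Hochberg adjustment over the whole set of genes tested, as throughout). That is 97.2% of members called, beside 84.3% of all genes in this comparison (45% higher and 39.4% lower in tail). The median log2 difference, tail minus intestine, was 0.76 over the members and 0.08 over all genes. With upper-quartile scaling the all-gene median moved to 0.181 and the members still split into 21 and 14.

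Muscle forms of the lower pathway set the tail apart. The muscle phosphoglycerate mutase gene pgam2 stood at 636, 627 and 642 CPM in tail WT control, and 4 counts in all were found in the 3 intestine WT control libraries. The muscle enolase eno3 had 3012, 2864 and 2963 CPM in tail and 0.821, 0.948 and 0.657 in intestine. Neither gene's organs overlapped, and the fitted log2 differences were 13.13 ± 0.13 for pgam2 (edgeR adjusted p = 4.3e-33) and 11.83 ± 0.10 for eno3 (edgeR adjusted p = 5.67e-34). Here and below, ± after a log2 value gives a standard error, derived from that value and the F statistic of its test. From raw counts, the ratio of tail to intestine was 9710 for pgam2, with an exact 95% interval of 3790 to 35700 that covers counting error only. Muscle fructose bisphosphatase, fbp2, was at 163, 168 and 170.1 CPM in tail and 0.319, 0.167 and 0.422 in intestine (log2 difference 9.05 ± 0.10, edgeR adjusted p = 3.55e-32). Its neighbour fbp1, the liver form in mammals, went the other way, with 909, 926 and 891 CPM in intestine and 40.5, 45.5 and 43.0 in tail (log2 difference -4.39 ± 0.09, edgeR adjusted p = 1.06e-25). On the XENTR_10.0 annotation named in the file header, fbp2 spans 135398644 to 135424222 and fbp1 135428347 to 135435488 of chromosome 1, on the same minus strand.

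Intestine was rich in glucose-handling genes that mammals use in liver and gut. The gene gck, encoding glucokinase, the low-affinity hexokinase of mammalian liver and beta cells, stood at 113, 108 and 112 CPM in intestine and 0.148, 0.323 and 0.352 in tail (log2 difference -8.63 ± 0.10, edgeR adjusted p = 2.24e-31). Cytosolic PEP carboxykinase, pck1, the classic rate-setting gene of gluconeogenesis, had 2292, 2427 and 2264 CPM in intestine and 52.1, 52.2 and 48.9 in tail (log2 difference -5.50 ± 0.07, edgeR adjusted p = 1.77e-30). The glucose carrier of liver and gut, slc2a2, differed by -5.10 ± 0.18 on the log2 scale (edgeR adjusted p = 8.97e-16), with 128 to 131 CPM in intestine and 3.22 to 4.04 in tail. All 3 genes lay far above the tail in every intestine library. The fructose carrier slc2a5 gave 4766 counts in the 3 intestine WT control libraries and 1 in the 3 tail libraries, a ratio of 4810 with an exact 95% interval of 864 to 190000. In tail the main hexokinase was hk1, at 223, 229 and 224 CPM against 9.89, 10.5 and 10.4 in intestine (log2 difference 4.46 ± 0.06, edgeR adjusted p = 1.17e-30). Aldolase A, aldoa, was also a tail gene, at 4919 to 5298 against 304 to 321 CPM (log2 difference 4.02 ± 0.08, edgeR adjusted p = 3.3e-26).

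Levels compared between genes need a correction for transcript length. Per kilobase of exon, the highest members in tail WT control were gapdh at 2818 CPM per kilobase, aldoa at 2664, eno3 at 1715 and tpi1 at 1019. In intestine WT control they were gapdh at 1718, pck1 at 885, fbp1 at 764, eno1 at 545 and pck2 at 497 CPM per kilobase. Among the 4 leading members of each organ, pck1 and fbp1 in intestine belonged to gluconeogenesis and none in tail did. The next in intestine, pck2, belonged to it too. Lactate dehydrogenase A, ldha, which turns pyruvate into lactate, was level with 344 CPM per kilobase in tail and 347 in intestine.

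**Figure D1:**
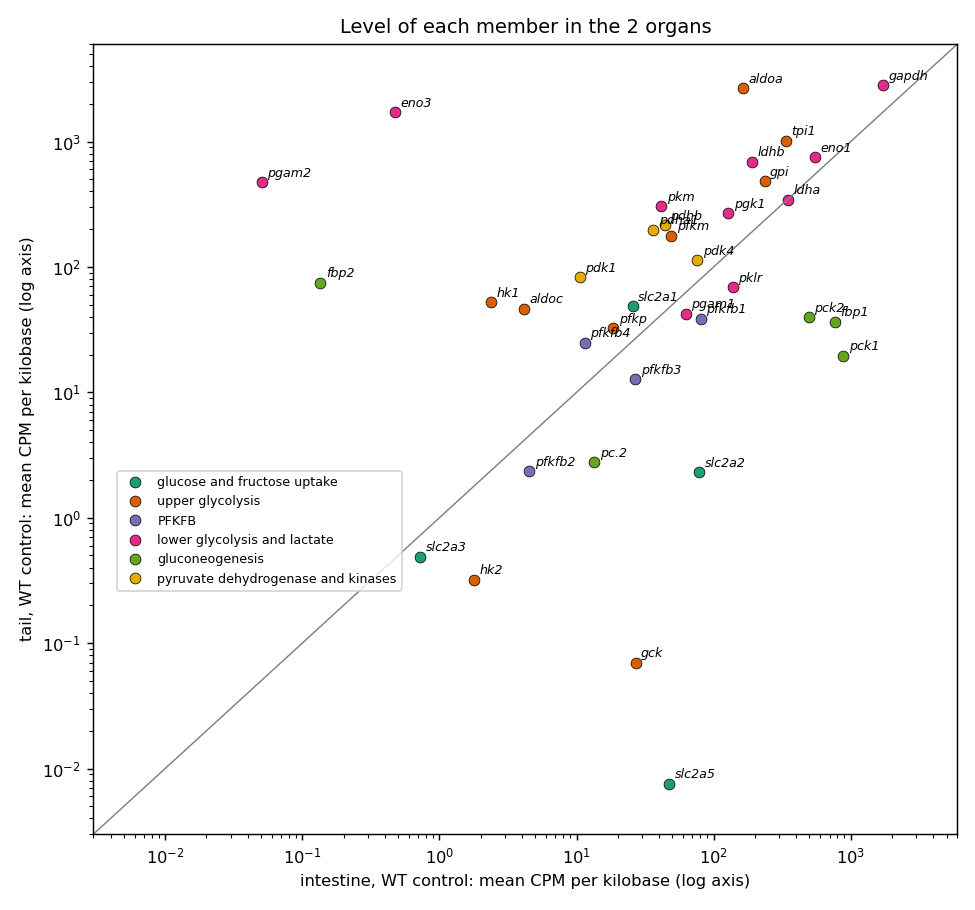
Mean level of each of the 36 members in intestine WT control (x axis) and tail WT control (y axis), in CPM per kilobase of exon on log axes, with colours for the step of the pathway and a line at equal levels. Members such as pgam2, eno3 and fbp2 sit far above the line and slc2a5, gck, pck1 and fbp1 far below it, while ldha lies on it.

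In several enzyme families the leading member differed between the organs. Of the transcripts of the 3 hexokinase members hk1, hk2 and gck, per kilobase, glucokinase gave 86.2% to 87.1% in intestine WT control, whereas hk1 gave 99.1% to 99.5% in tail. The hexokinase-like gene hkdc1, no member, is left out of these shares. The phosphoglycerate mutase transcripts were 99.9% pgam1 in intestine and 91.6% to 92.0% pgam2 in tail, and eno3 supplied 69.2% to 70.2% of enolase transcripts in tail. Pyruvate kinase was mostly pklr, the liver and red cell gene of mammals, in intestine at 76.0% to 77.5%, and mostly pkm in tail at 81.5% to 82.0%. Lactate dehydrogenase transcripts were 64.0% to 65.1% ldha in intestine and 33.0% to 33.5% in tail, where ldhb, the form that favours lactate use in mammals, prevailed. Other families kept the same leading member. Of the transcripts of aldoa and aldoc, aldoa gave 97.2% to 97.9% in intestine and 98.2% to 98.3% in tail. Of those of pfkm and pfkp, pfkm gave 71.6% to 73.8% and 84.3% to 84.8%, with pfkl missing because the naming rule did not find it. All these shares count only the members found, so family genes outside them are left out.

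Some shares also lay apart between the conditions of an organ. The pck1 share of PEP carboxykinase transcripts in intestine was 63.7% to 64.5% in WT control, 49.3% to 49.7% in WT with T3, 35.4% to 35.8% in TRDKO control and 48.4% to 49.4% in TRDKO with T3. In tail it was 31.9% to 33.2%, 9.68% to 10.9%, 3.75% to 4.01% and 8.35% to 9.94% in the same order, so the lowest share in both organs belonged to TRDKO control and the highest to WT control, while the T3 groups of the genotypes overlapped. The pkm share of pyruvate kinase was 22.5% to 24% in intestine WT control and 30.4% to 31.3% in TRDKO control. In tail WT control it was 81.5% to 82.0%, and in TRDKO control 89.2% to 89.9%. In tail the pfkfb4 share of the PFKFB enzymes was 31.4% to 32.1% in WT control and 55.8% to 56.3% in WT with T3. These shares describe the libraries and were not tested.

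**Figure D2:**
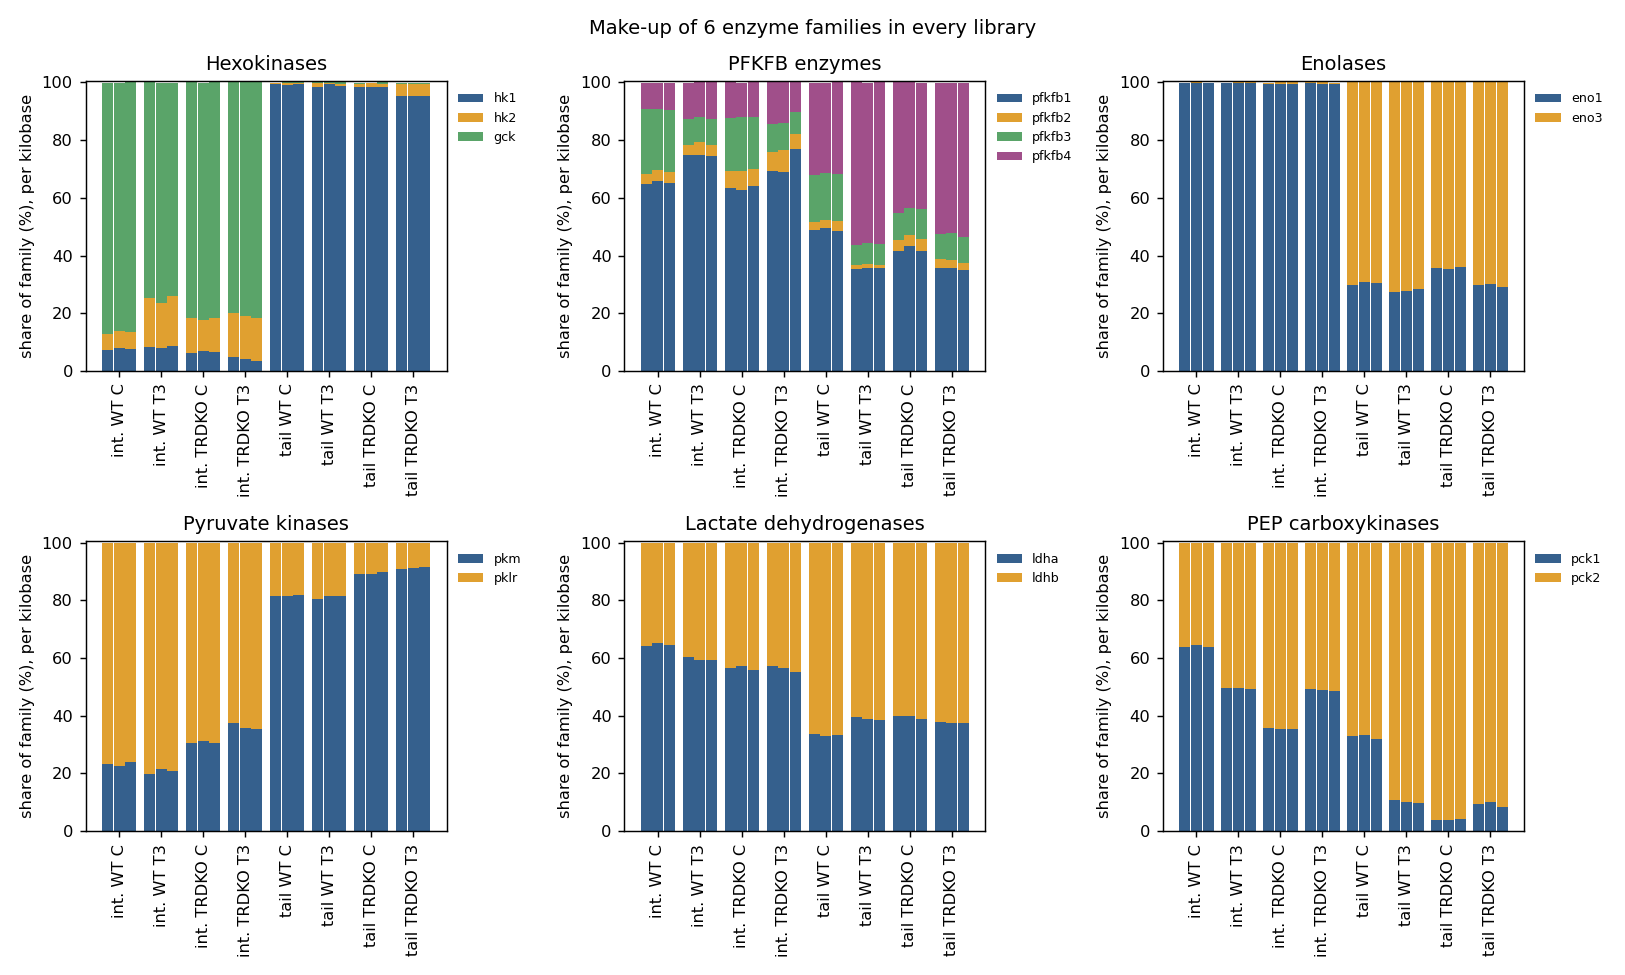
Share (percent, y axis) of each member in the summed counts per kilobase of its family, for 6 enzyme families, with 1 bar per library in the 8 groups (int., intestine; C, control). Bars of most groups look alike. In the PFKFB panel intestine TRDKO T3 replicate 3 differs from its group, with pfkfb1 at 76.8% against 69.3% and 68.9%. Organs differ in every family shown, and the pck1 share is lowest in TRDKO control of both organs.

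T3 lowered more members than it raised in WT intestine. Of 35 members tested there, 8 rose, 17 fell and 10 did not pass, so 71.4% were called beside 60.5% of all genes (30.3% up and 30.3% down). The median log2 change was -0.15 against 0.01 over all genes. Falls covered 3 of 4 sugar carriers and 4 of 5 gluconeogenic genes, and the rises lay among hexokinase hk2, aldolases, tpi1, gapdh, enolases and pdk1. With upper-quartile scaling 8 rose and 13 fell. The changes of aldoc (log2 change 0.32), pkm (-0.15), fbp1 (-0.23) and ldhb (-0.22) no longer passed when some libraries were left out 1 at a time.

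In TRDKO intestine rises and falls were closer in number, and 15 of 35 members rose, 12 fell and 8 did not pass, 77.1% called beside 40.9% of all genes (20.6% up and 20.3% down). The median log2 change was -0.03 against 0.00 over all genes. All 4 carriers passed, 3 of them upward, and 3 of 5 gluconeogenic genes rose with none falling. Without intestine TRDKO T3 replicate 3, the library that stood apart, 17 members rose and 15 fell. The test of the difference between the T3 effects of the genotypes (TRDKO minus WT) was positive for 18 members and negative for 7, 71.4% called beside 52.3% of all genes (27.2% up and 25.1% down), with a median of 0.35 against 0.00 over all genes.

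Without hormone, TRDKO intestine held less of most members than WT. In that comparison 19 of 35 were lower in TRDKO, 6 were higher and 10 did not pass, 71.4% called beside 57.8% of all genes (29.1% up and 28.7% down), with a median of -0.37 (all genes 0.01). Upper-quartile scaling moved the share of higher calls over all genes from 50.3% to 61.4%, and gave 10 members higher and 17 lower.

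In tail, too, more members were lower than higher in each comparison with WT control. With T3 in WT tail 9 of 35 members rose, 20 fell and 6 did not pass, 82.9% called beside 68.9% of all genes (35.4% up and 33.5% down), with a median of -0.11 (all genes 0.02). In TRDKO tail 10 rose, 16 fell and 9 did not pass, 74.3% beside 52.9% of all genes (26.7% up and 26.2% down), with a median of -0.04 (all genes -0.00). There upper-quartile scaling, which moved the share of higher calls from 50.5% to 39.8%, gave 9 rises and 20 falls. Without hormone 22 members were lower in TRDKO tail than in WT, 8 were higher and 5 did not pass, 85.7% beside 73.1% of all genes (36.4% up and 36.6% down), with a median of -0.25 (all genes 0.01). The difference of T3 effects in tail was positive for 15 and negative for 10, 71.4% beside 65.6% of all genes (32.2% up and 33.4% down), with a median of 0.07 (all genes -0.03). That last split turned to 10 and 14 with upper-quartile scaling, which shifted the median of all genes to -0.139. In each organ the T3 effect in WT and the genotype difference use the same WT control libraries, so they are not independent of each other.

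**Figure D3:**
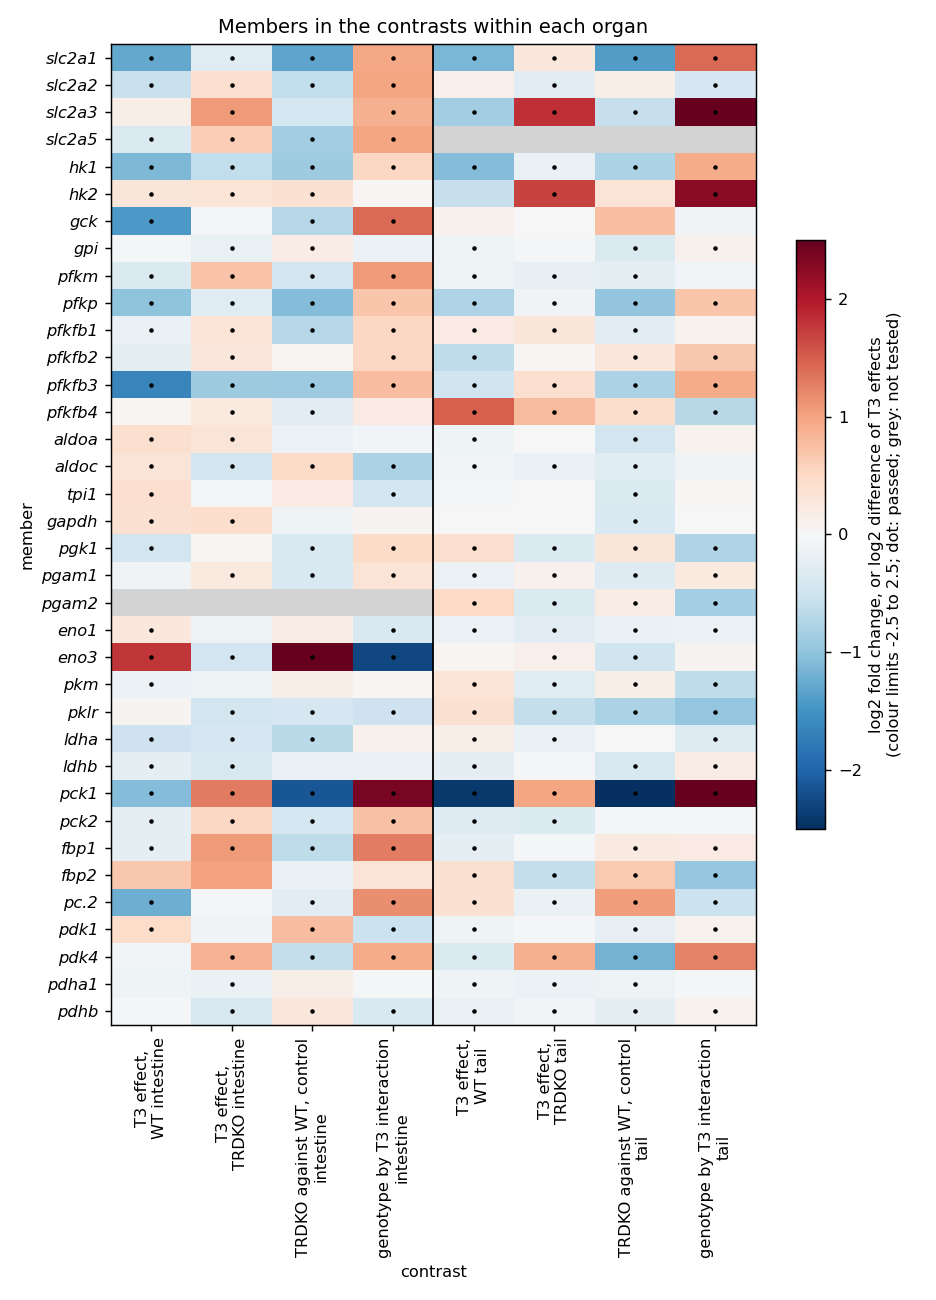
Log2 fold changes of the 36 members (rows, in pathway order) in the 4 comparisons within each organ (columns), on a colour scale limited to -2.5 and 2.5, with dots where the adjusted p was under 0.05 and grey where a gene was not tested. In both organs slc2a1, hk1, pfkp, pfkfb3 and pck1 are blue for T3 in WT and for TRDKO against WT, and the differences of T3 effects for pck1 are deep red.

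Among the sugar carriers, the basal glucose transporter gene slc2a1 was highest in WT control of both organs. In intestine it stood at 97.0, 97.0 and 97.3 CPM in WT control, 43.1, 40.3 and 40.9 in WT with T3, 45.1, 35.7 and 38.9 in TRDKO control, against 34.4, 31.5 and 30.6 in TRDKO with T3. In tail the values were 184, 184 and 187 CPM in WT control, 88.3, 76.6 and 83.4 in WT with T3, 69.7, 71.8 and 68.2 in TRDKO control, against 84.0, 83.0 and 82.4 in TRDKO with T3. Every WT control library lay above the 9 others of its organ. In WT slc2a1 fell with T3, with a log2 change of -1.28 ± 0.07 in intestine (edgeR adjusted p = 2.56e-09) and -1.15 ± 0.03 in tail (edgeR adjusted p = 2.76e-52). TRDKO control stood at -1.32 ± 0.07 against WT control in intestine (edgeR adjusted p = 1.7e-09) and -1.39 ± 0.03 in tail (edgeR adjusted p = 3.25e-59). In TRDKO the hormone's effect on slc2a1 had opposite signs in the organs, -0.30 in intestine and 0.26 in tail, and the difference between these was 0.56 ± 0.09 (edgeR adjusted p = 7.05e-06).

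The fructose carrier slc2a5 and the glucose carrier slc2a2 were intestine genes whose levels fell with T3 in WT and rose with it in TRDKO. For slc2a5 the intestine values were 75.7, 79.5 and 78.8 CPM in WT control, 62.3, 62.9 and 62.7 in WT with T3, 44.0, 43.4 and 44.2 in TRDKO control, against 68.0, 65.9 and 67.3 in TRDKO with T3, with no overlap between the groups. T3 raised it by 0.62 ± 0.04 on the log2 scale in TRDKO (edgeR adjusted p = 2.92e-08) and the change in WT was -0.36. For slc2a2 the values were 131, 128 and 129.8 CPM in WT control, 91.4, 90.5 and 89.6 in WT with T3, 86.3, 85.6 and 87.9 in TRDKO control, against 129, 131 and 83.2 in TRDKO with T3. The last of these, 83.2 CPM, belongs to the replicate that stood apart and lies below the TRDKO control libraries. The log2 change of slc2a2 with T3 in TRDKO was 0.42 with that library and 0.61 without it, and it did not pass without either of the other 2 libraries of the group. Summed absorptive enterocyte markers were 49023 to 51601 CPM in WT control, 46883 to 49775 in WT with T3, 37966 to 40321 in TRDKO control and 53932 to 58243 in TRDKO with T3, with none of the 29 marker genes at 0. With T3 in TRDKO 23 of them rose and 1 fell, 82.8% called beside 40.9% of all genes. With T3 in WT 6 rose and 13 fell, 65.5% beside 60.5%. In TRDKO control 17 were lower and 7 higher than in WT control, 82.8% beside 57.8%. In these bulk samples fewer cells of a type and less RNA per cell cannot be told apart, and the part of cell make-up in the result was not tested. The neuronal glucose carrier of mammals, slc2a3, stayed under 4 CPM in every library.

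Hexokinase genes followed their organ. In intestine, gck stood at 113, 108 and 112 CPM in WT control and 41.1, 43.0 and 42.9 in WT with T3, a log2 change of -1.44 ± 0.04 (edgeR adjusted p = 4.06e-12). TRDKO libraries were at 68.9, 71.2 and 68.4 CPM without hormone and 68.4, 69.6 and 64.8 with it, a change of -0.03 that did not pass. The difference between the T3 effects of the genotypes was 1.41 ± 0.06 (edgeR adjusted p = 3.39e-10). In tail, hk1, the hexokinase of most tissues, was at 223, 229 and 224 CPM in WT control, 107, 105 and 105 in WT with T3, 129, 131 and 131 in TRDKO control, against 117, 116 and 113 in TRDKO with T3. WT control libraries were again apart from the rest, and the T3 effect was -1.09 ± 0.03 in WT (edgeR adjusted p = 2.17e-55) and -0.17 in TRDKO. The difference of 0.93 ± 0.04 between these effects passed (edgeR adjusted p = 8.73e-40). Intestine hk1 was low, at 9.89 to 10.5 CPM in WT control, and fell with T3, with a log2 change of -1.12 ± 0.11 in WT (edgeR adjusted p = 1.66e-06) and -0.61 ± 0.13 in TRDKO (edgeR adjusted p = 0.00205). The insulin-responsive muscle form hk2 reached at most 10.4 CPM, in intestine.

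As pfkl was not found by the naming rule, phosphofructokinase, the committing enzyme, was read from pfkm and pfkp alone. Of these, pfkp stood in intestine at 72.8, 75.9 and 71.0 CPM in WT control, 38.4, 38.6 and 36.7 in WT with T3, 37.1, 34.5 and 34.7 in TRDKO control, against 29.4, 29.6 and 26.5 in TRDKO with T3. Tail values were 127, 127 and 131 CPM in WT control, 74.7, 75.3 and 73.0 in WT with T3, 65.5, 63.1 and 63.0 in TRDKO control, against 60.8, 60.1 and 58.8 in TRDKO with T3. Both organs had WT control highest, without overlap. The T3 effect on pfkp in WT was -1.0 in intestine and -0.78 ± 0.03 in tail (edgeR adjusted p = 7.44e-40), and TRDKO control lay at -1.09 ± 0.05 against WT control in intestine (edgeR adjusted p = 7.33e-10) and at -1.0 ± 0.03 in tail (edgeR adjusted p = 2.51e-48). The muscle form pfkm moved differently. It was at 172, 172 and 179.6 CPM in intestine WT control and 140.1, 138 and 145 with T3, but at 134, 131 and 128 in TRDKO control and 223, 222 and 194 with T3. With T3 pfkm thus fell in WT (log2 change -0.36) and rose by 0.71 ± 0.05 in TRDKO (edgeR adjusted p = 1.48e-07), and the effects differed by 1.07 ± 0.08 (edgeR adjusted p = 6.07e-08).

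The PFKFB enzymes make and break fructose 2,6-bisphosphate, the main activator of phosphofructokinase. Of the family, pfkfb3, whose mammalian product mainly makes the activator, stood at 128, 119.9 and 124 CPM in intestine WT control, 41.3, 40.0 and 40.9 in WT with T3, 68.8, 68.5 and 68.5 in TRDKO control, against 39.8, 38.2 and 32.2 in TRDKO with T3. It fell with T3, with a log2 change of -1.65 ± 0.06 in WT intestine (edgeR adjusted p = 3.4e-11) and -0.89 ± 0.06 in TRDKO intestine (edgeR adjusted p = 7.17e-08), and no library with T3 reached its controls. Tail pfkfb3 was at 58.1, 60.1 and 57.9 CPM in WT control, 39.4, 42.2 and 42.7 in WT with T3, 32.0, 33.8 and 36.3 in TRDKO control, against 44.3, 47.1 and 44.8 in TRDKO with T3. There the hormone's effect was negative in WT (-0.50) and positive in TRDKO at 0.43 ± 0.04 (edgeR adjusted p = 4.46e-16), a difference of 0.92 ± 0.06 (edgeR adjusted p = 8.57e-26).

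The largest rise of any member with at least 5 CPM in WT tail was that of pfkfb4. Its tail values were 103, 102 and 99.5 CPM in WT control, 283, 288 and 284 in WT with T3, 136, 136 and 136 in TRDKO control, against 233, 235 and 237 in TRDKO with T3, with no overlap between the groups. T3 raised it by 1.49 ± 0.03 in WT (edgeR adjusted p = 1.11e-64) and by 0.80 ± 0.02 in TRDKO (edgeR adjusted p = 1.29e-48), with a difference of -0.70 ± 0.04 (edgeR adjusted p = 1.53e-31). Intestine pfkfb4 was at 45.7 to 47.9 CPM in WT control and 48.3 to 50.9 with T3, and the organs' T3 effects in WT differed by 1.39 ± 0.09 (edgeR adjusted p = 6.33e-13). The other genes of the family were pfkfb1, at 209.6 to 212 CPM in intestine WT control and 128 to 137 in TRDKO control, and pfkfb2, which ranged over 3.35 to 16.2 CPM in all libraries.

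**Figure D4:**
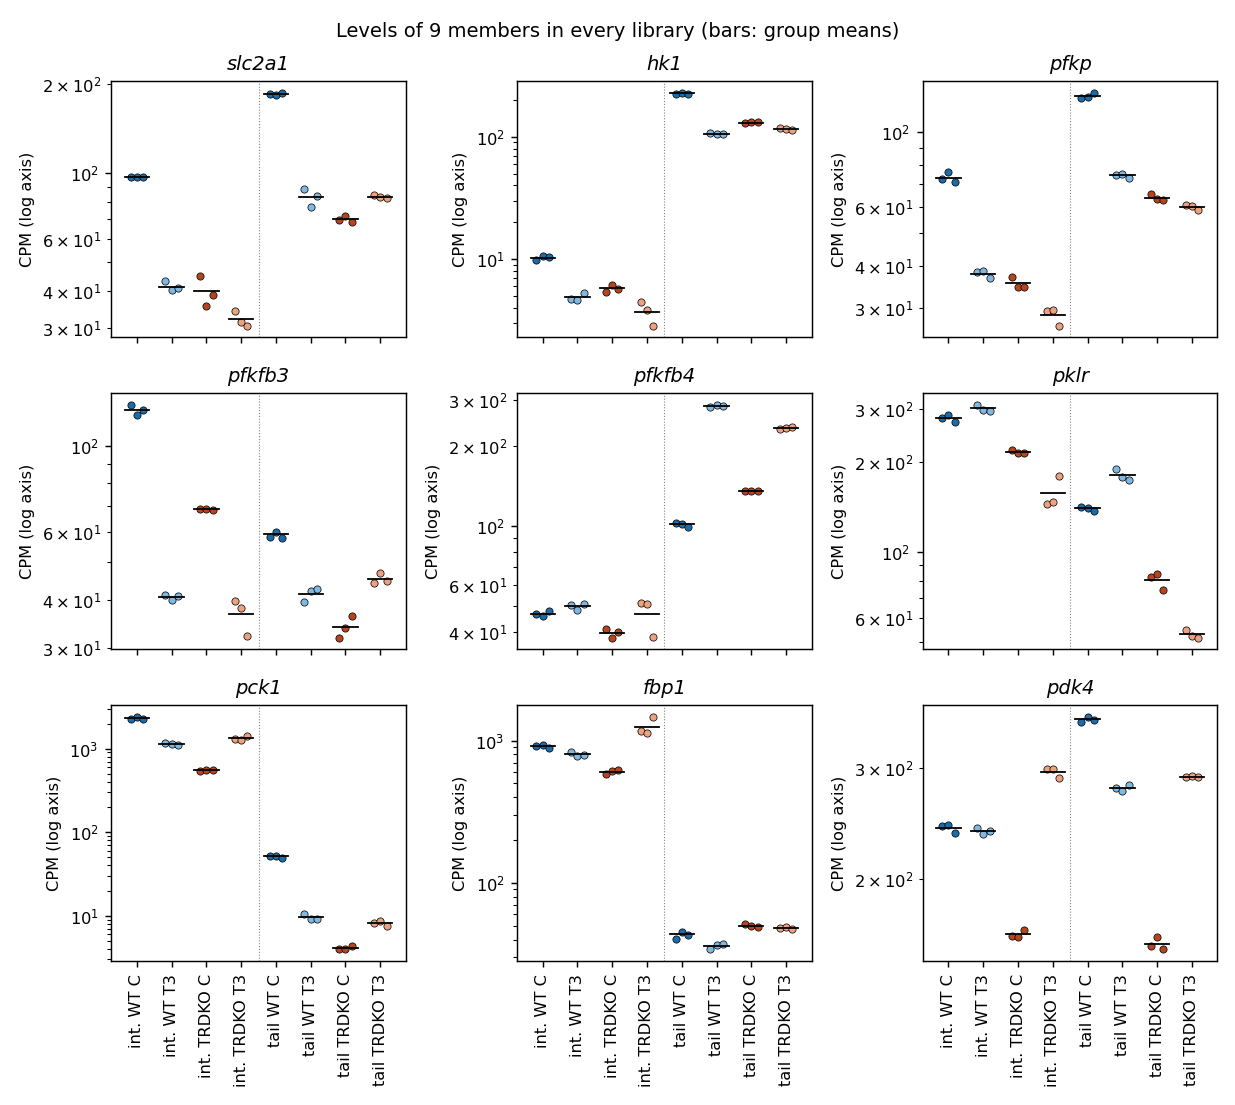
Level of 9 members in each of the 24 libraries (points), in CPM on a log axis, by group, with bars at the group means and a dotted line between intestine (int.) and tail (C, control). For slc2a1, hk1, pfkp, pfkfb3 and pck1 the 3 WT control points lie above all other points of their organ, and pfkfb4 rises with T3 in tail of both genotypes.

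In tail, aldolase, triose phosphate isomerase, glyceraldehyde phosphate dehydrogenase and muscle enolase had abundant transcripts and small changes with T3 in WT, unlike pgk1 and pgam2, described next. In tail WT control aldoa stood at 4919 to 5298 CPM, tpi1, triose phosphate isomerase, at 1015 to 1040.0, gapdh at 3883 to 4051 and eno3 at 2864 to 3012. T3 in WT tail changed them by -0.10, -0.02, 0.00 and 0.04 on the log2 scale, of which the change in aldoa passed, though not with upper-quartile scaling, DESeq2, limma-voom or both organs in 1 fit, nor without tail WT T3 replicate 3 (-0.07). All 4 were lower in TRDKO control than in WT control of tail, with log2 differences of -0.47, -0.35, -0.39 and -0.51. Summed skeletal muscle markers were 55939 to 57484 CPM in WT control and 44132 to 46662 in TRDKO control, with none at 0. Of these 29 markers 19 were lower in TRDKO and 6 higher, in a comparison that called 73.1% of all genes (36.6% lower and 36.4% higher). The part of the markers in the result was not tested. In intestine T3 raised aldoa in WT by 0.40 ± 0.08 (edgeR adjusted p = 0.000451), tpi1 by 0.42 ± 0.09 (edgeR adjusted p = 0.00115) and gapdh by 0.37 ± 0.10 (edgeR adjusted p = 0.00449). The gapdh values there were 2383, 2515 and 2345 CPM in control and 3421, 3104 and 3166 with T3, without overlap. In TRDKO intestine with T3, gapdh was at 2893, 2771 and 3765 CPM, so the library that stood apart was the highest of its group.

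Phosphoglycerate kinase and the muscle mutase turned in opposite directions in the genotypes of tail. For pgk1 the values were 526, 510.1 and 524 CPM in WT control, 690.0, 684 and 681 in WT with T3, 625, 644 and 631 in TRDKO control, against 488, 503 and 498 in TRDKO with T3. For pgam2 they were 636, 627 and 642 CPM in WT control, 905, 898 and 873 in WT with T3, 709, 729 and 714 in TRDKO control, against 552, 561 and 559.6 in TRDKO with T3. In both genes every T3 library lay above its control in WT and below it in TRDKO. The T3 effects on pgk1 were 0.41 ± 0.03 in WT (edgeR adjusted p = 5.7e-25) and -0.34 ± 0.02 in TRDKO (edgeR adjusted p = 6.89e-23). Those on pgam2 were 0.50 ± 0.03 (edgeR adjusted p = 6.41e-30) and -0.35 ± 0.02 (edgeR adjusted p = 2.95e-23). Differences of -0.75 ± 0.04 for pgk1 (edgeR adjusted p = 1.49e-33) and -0.86 ± 0.04 for pgam2 (edgeR adjusted p = 7.92e-37) passed. Intestine pgk1 instead fell with T3 in WT, with 239 to 253 CPM in control and 185 to 187 with T3, and the organs' T3 effects in WT differed by 0.81 ± 0.08 (edgeR adjusted p = 2.1e-09).

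Muscle enolase was also read at a low level in intestine, where it rose with T3 in WT. The eno3 values there were 0.821, 0.948 and 0.657 CPM in WT control, 3.17, 2.75 and 2.78 in WT with T3, 5.07, 4.71 and 5.59 in TRDKO control, against 3.06, 3.72 and 4.29 in TRDKO with T3. WT control was lowest without overlap. TRDKO control stood 2.62 ± 0.17 above WT control on the log2 scale (edgeR adjusted p = 1.5e-08), the largest genotype difference of any member in intestine. Summed skeletal muscle markers in these groups were 2612 to 2741, 4044 to 4224, 3496 to 3709 and 1937 to 2311 CPM. The markers myod1, myog and myf6 were at 0 in all 4 groups, and casq1 and ttn in the WT groups only. Of 12 muscle markers tested 10 were higher and 2 lower in TRDKO control than in WT control, 100% called beside 57.8% of all genes. With T3 in WT 5 rose and 0 fell, 41.7% beside 60.5%. The part of these markers in the result was not tested.

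At the end of the pathway, pyruvate kinase pklr responded to the hormone with opposite signs in tail. It stood at 141, 139.7 and 137 CPM in WT control, 189.5, 178 and 173 in WT with T3, 82.0, 84.0 and 74.6 in TRDKO control, against 54.7, 52.4 and 51.7 in TRDKO with T3. The 4 groups did not overlap. T3 effects were 0.38 ± 0.03 in WT (edgeR adjusted p = 2.3e-15) and -0.59 ± 0.04 in TRDKO (edgeR adjusted p = 1.23e-19), and TRDKO control lay -0.79 ± 0.03 from WT control (edgeR adjusted p = 1.82e-26). Summed erythrocyte markers in tail were 2561 to 2588 CPM in WT control and 3221 to 3340 in WT with T3. They were 2676 to 2784 CPM in TRDKO control and 1762 to 1793 in TRDKO with T3, and their part in pklr was not tested. In intestine pklr was at 279, 285 and 272 CPM in WT control and 219, 213 and 214 in TRDKO control, and it fell with T3 in TRDKO, by a log2 change of -0.45 ± 0.07 (edgeR adjusted p = 0.000108). Lactate dehydrogenase ldha fell with T3 in WT intestine (log2 change -0.52), with 492 to 517 CPM in control and 357 to 378 with it. In WT tail it rose (0.15), though not with both organs in 1 fit, and the organs' effects differed by 0.62, which passed.

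Among the gluconeogenic genes pck1 stood out in both organs by its genotype difference, and in WT intestine pc.2 changed more with T3. In intestine pck1 stood at 2292, 2427 and 2264 CPM in WT control, 1161, 1128 and 1117 in WT with T3, 543, 551 and 550.3 in TRDKO control, against 1322, 1269 and 1427 in TRDKO with T3. In tail it was at 52.1, 52.2 and 48.9 CPM in WT control, 10.5, 9.06 and 9.10 in WT with T3, 3.95, 4.05 and 4.30 in TRDKO control, against 8.21, 8.58 and 7.46 in TRDKO with T3. WT control was highest and TRDKO control lowest in each organ, and the T3 groups of both genotypes lay between them. The gene lies on chromosome 10 at 5408168 to 5414677, on the minus strand.

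The T3 effect on pck1 in WT was -1.08 in intestine and -2.41 ± 0.06 in tail (edgeR adjusted p = 7.01e-56). In TRDKO it was 1.30 ± 0.06 in intestine (edgeR adjusted p = 3.58e-10) and 0.99 ± 0.09 in tail (edgeR adjusted p = 7.61e-16). The genotypes' effects thus differed by 2.38 ± 0.08 in intestine (edgeR adjusted p = 1.69e-11) and 3.40 ± 0.11 in tail (edgeR adjusted p = 6.24e-45). Without hormone TRDKO lay -2.13 ± 0.06 from WT in intestine (edgeR adjusted p = 9.16e-13) and -3.63 ± 0.06 in tail (edgeR adjusted p = 1.43e-65), the largest genotype difference of any member in tail. Without intestine TRDKO T3 replicate 3 the intestine effect in TRDKO was 1.26 and the difference 2.35.

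Fructose bisphosphatase and pyruvate carboxylase shared parts of this pattern in intestine. The fbp1 values were 909, 926 and 891 CPM in WT control, 828, 781 and 792 in WT with T3, 581, 612 and 623 in TRDKO control, against 1161, 1122 and 1474 in TRDKO with T3. TRDKO with T3 was highest without overlap, and the third library of the group, at 1474 CPM, stood above the others. T3 raised fbp1 in TRDKO by 1.06 ± 0.08 (edgeR adjusted p = 2.48e-07), or 0.94 without that library, and the effects of the genotypes differed by 1.29 ± 0.12 (edgeR adjusted p = 8.37e-07). Pyruvate carboxylase, pc.2, which feeds the pathway with oxaloacetate, was at 119, 111 and 116 CPM in WT control, 53.0, 50.2 and 50.5 in WT with T3, 98.8, 97.1 and 97.3 in TRDKO control, against 100.3, 104 and 75.2 in TRDKO with T3. It fell with T3 in WT, by a log2 change of -1.22 ± 0.09 (edgeR adjusted p = 5.9e-08), and the change in TRDKO, -0.06, did not pass. Without the library that stood apart that effect was 0.09 and passed. Mitochondrial PEP carboxykinase, pck2, rose with T3 in TRDKO intestine, with 930.5 to 961 CPM in control and 1277 to 1457 with it.

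Summed over the 5 gluconeogenic members, intestine gave 4506 to 4746 CPM in WT control, 3058 to 3168 in WT with T3, 2153 to 2232 in TRDKO control and 3772 to 4434 in TRDKO with T3. No groups overlapped in this sum. Summed exocrine pancreas markers were 58.0 to 60.3, 1682 to 1722, 9933 to 10542 and 384 to 497 CPM, with 7, 2, 3 and 5 of 27 genes at 0 and prss1 at 0 outside WT with T3. Summed hepatocyte markers were 10475 to 11285, 10917 to 11924, 10386 to 11314 and 15001 to 16076 CPM, with albumin (alb) at 0 in both WT groups. The sums of the control groups overlap, but single hepatocyte markers differed between them. Of 24 tested 13 were higher and 5 lower in TRDKO control than in WT control, 75% called beside 57.8% of all genes. The part of these markers in the gluconeogenic genes, and that of the enterocyte markers given above, was not tested.

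Unlike pck1, the gluconeogenic genes fbp2 and pc.2 (0.38) rose with T3 in WT tail. In TRDKO tail, where pck1 rose, pck2 fell with T3 from a mean of 98.2 to 76.6 CPM. That log2 change was -0.35 ± 0.03 (edgeR adjusted p = 1.54e-19). Summed over the 5 gluconeogenic members, tail gave 381 to 390 CPM in WT control and 368 to 377 in WT with T3. The sum was 459 to 463 CPM in TRDKO control and 346 to 353 in TRDKO with T3. Muscle fbp2 was at 163, 168 and 170.1 CPM in WT control, 219, 215 and 213 in WT with T3, 261, 259 and 262 in TRDKO control, against 171, 177 and 169 in TRDKO with T3. It stood 0.65 ± 0.03 higher in TRDKO than in WT control (edgeR adjusted p = 2.5e-39), and with T3 it rose in WT (0.37) and fell in TRDKO, by a log2 change of -0.59 ± 0.02 (edgeR adjusted p = 1.72e-39). The pc.2 gene was lowest in WT control, at 24, 23.9 and 23.4 CPM, and highest in TRDKO control, at 50.1, 46.8 and 49.2, a log2 difference of 1.04 ± 0.04 (edgeR adjusted p = 1.17e-36). Tail fbp1 was slightly higher in TRDKO control (0.22), where summed enterocyte markers were 266 to 271 CPM against 56.4 to 57.0 in WT control and exocrine pancreas markers 124 to 135 against 2.27 to 2.72, and their part was not tested.

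Pyruvate enters the mitochondrion's citrate cycle through pyruvate dehydrogenase, which the kinases pdk1 and pdk4 switch off. In tail pdk4, a kinase that fasting raises in mammals, stood at 355, 362 and 358 CPM in WT control, 279, 276 and 283 in WT with T3, 157, 162 and 155 in TRDKO control, against 291, 291 and 291 in TRDKO with T3. In intestine it stood at 243, 244 and 237 CPM in WT control, 242, 236 and 239 in WT with T3, 163, 162 and 166 in TRDKO control, against 299, 299 and 289 in TRDKO with T3. TRDKO control was the lowest group in both organs, without overlap. T3 raised pdk4 in TRDKO by 0.86 ± 0.04 in intestine (edgeR adjusted p = 4.37e-10) and by 0.89 ± 0.02 in tail (edgeR adjusted p = 2.03e-51). In WT the effect was -0.06 in intestine, which did not pass, and -0.35 in tail. The genotypes' effects in tail differed by 1.25 ± 0.03 (edgeR adjusted p = 7.87e-51), and in TRDKO the organs' effects differed by 0.02, which did not pass. In intestine pdk1 was lowest in WT control, at 33.2, 34.2 and 35.6 CPM, and stood at 58.8, 58.4 and 63.2 in TRDKO control, a log2 difference of 0.76 ± 0.05 (edgeR adjusted p = 1.13e-08). The enzyme's own subunit genes pdha1 and pdhb ranged over 304 to 394 CPM in tail and 63.6 to 102 in intestine.

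Over the list, WT control was often the group apart. In intestine all 3 WT control libraries were the highest of the 12 libraries for 12 of 35 members, 34.3%, beside 15.4% of all genes, and the lowest for 3, hk2, eno3 and pdk1, 8.57% beside 17.9%. In tail they were highest for 16 of 35, 45.7% beside 21.7% of all genes, and lowest for 2, pfkfb4 and pc.2, 5.71% beside 20.3%. Members highest in WT control of both organs were slc2a1, hk1, pfkp, pfkfb3, ldhb and pck1. This count was chosen after the levels were seen and is a description.

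The hormone's effect depended on the organ for most members. In WT the organs' T3 effects (tail minus intestine) differed for 24 of 36 members, 66.7% beside 39.5% of all genes (17.8% up and 21.7% down), with 11 positive and 13 negative differences. In TRDKO 24 of 36 differed, 66.7% beside 31.6% of all genes (17.4% up and 14.2% down), 12 in each direction, and 27 differed without intestine TRDKO T3 replicate 3. DESeq2 gave 8 positive and 13 negative differences in TRDKO, and moved the share of positive calls over all genes from 55% to 41%. Besides the genes above, gck differed in WT by 1.49 ± 0.36 (edgeR adjusted p = 0.00923) against -1.44 in intestine alone. Tail gck was at 0.148 to 0.352 CPM in control and 0.199 to 0.383 with T3, and the difference no longer passed without tail WT control replicate 1 (1.2) or without tail WT T3 replicate 3 (1.25). Pyruvate carboxylase pc.2 differed by 1.54 ± 0.11 in WT (edgeR adjusted p = 5.34e-11), with 23.4 to 24 CPM in tail control and 30.3 to 31.3 with T3. In TRDKO the T3 effect on pfkfb3 was 1.31 ± 0.08 higher in tail than in intestine (edgeR adjusted p = 2.75e-13), and that on fbp1 -1.10 ± 0.10 (edgeR adjusted p = 1.04e-09).

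The pentose phosphate pathway branches from glycolysis at glucose 6-phosphate and makes NADPH and ribose phosphate. Its gene pgd, encoding 6-phosphogluconate dehydrogenase, is outside the list and stood at 296 ± 0.715 CPM (SD, n = 3) in intestine WT control, 70.6 ± 0.587 in WT with T3, 108 ± 3.95 in TRDKO control and 88.8 ± 9.51 in TRDKO with T3. In tail it was at 336 ± 2.14 CPM (SD, n = 2) in WT control and 61.6 ± 3.62, 63.1 ± 2.02 and 76.7 ± 2.29 (SD, n = 3) in the other groups, in the same order. WT control had the highest mean in both organs. The T3 effect on pgd in WT was -2.12 ± 0.06 in intestine (edgeR adjusted p = 2.09e-12) and -2.44 ± 0.03 in tail (edgeR adjusted p = 6.16e-79). Of the pentose phosphate and fructose list 2 of 12 genes tested rose and 6 fell with T3 in WT intestine, and 6 rose and 6 fell in WT tail, 66.7% and 100% called beside 60.5% and 68.9% of all genes.

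Carriers outside the member list were mixed. With T3 in WT 5 of 15 tested rose and 4 fell in intestine, and 7 of 16 rose and 6 fell in tail, 60% and 81.2% called beside 60.5% and 68.9% of all genes. In TRDKO intestine 9 of 15 rose and none fell, 60% beside 40.9%. The monocarboxylate carrier slc16a1, which moves lactate and pyruvate across the cell membrane, stood at 139 ± 1.29 CPM (SD, n = 2) in tail WT control and 21.8 ± 1.06 (SD, n = 3) with T3, a log2 change of -2.66 ± 0.04 (edgeR adjusted p = 6.47e-72). In intestine it was at 15 ± 0.262 CPM (SD, n = 3) in TRDKO control and 44.9 ± 2.13 (SD, n = 3) with T3, a rise of 1.59 ± 0.05 (edgeR adjusted p = 9.29e-12). The sodium-coupled glucose carrier slc5a1.1 fell with T3 in WT intestine, by a log2 change of -1.2 ± 0.04 (edgeR adjusted p = 2.37e-11).

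Of the other enzymes of glycolysis and gluconeogenesis, 5 of 20 tested rose and 7 fell with T3 in WT intestine, and 8 rose and 6 fell in WT tail. These shares of 60% and 70% called lie near the 60.5% and 68.9% of all genes. The hexokinase-like gene hkdc1 had 24.4 ± 0.944 CPM (SD, n = 3) in intestine WT control and 4.06 ± 0.465 (SD, n = 3) with T3, a log2 change of -2.63 ± 0.10 (edgeR adjusted p = 2.69e-11). Mitochondrial malic enzyme me2, which makes pyruvate from malate, changed in WT tail by -2.54 ± 0.06 (edgeR adjusted p = 5.69e-55). Among glycogen genes 5 of 18 rose and 9 fell in WT intestine, and 8 of 20 rose and 10 fell in WT tail, which is 77.8% and 90% called. Glycogen synthase gys1 changed by -1.99 ± 0.04 in WT intestine (edgeR adjusted p = 2.09e-14), and ppp1r3c.2, a targeting subunit that brings a phosphatase to glycogen, by 2.73 ± 0.06 in WT tail (edgeR adjusted p = 3.42e-56).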

How the data were processed

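RNA was sequenced from 24 libraries of intestine and tail in 8 groups of 3. Per the submitters' processing notes, reads were trimmed with cutadapt 3.2, aligned with STAR 2.7.7a and assigned to genes by featureCounts (Subread 2.0.1). Per the file headers, the authors deposited raw counts of fragments per gene name on the XENTR_10.0 annotation, counted on the reverse strand with both ends mapped, primary alignments only, and chimeric fragments and marked duplicates left out. Primary-only counting can move fragments between close paralogs, and dropping duplicates can lower abundant genes such as gapdh.

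The counts were tested with the quasi-likelihood test of edgeR 4.0.16 (R 4.3.3) after TMM scaling, with genes filtered by filterByExpr. The 12 intestine, 12 tail and 24 joint libraries were fitted separately (15491, 17018 and 17887 genes tested, of which 35, 35 and 36 were members), with 1 coefficient per group and Benjamini-Hochberg adjustment over all genes at 0.05. Tail WT control replicates 1 and 3 were summed, which left 23 samples. The scripts were tested on simulated data. Levels (CPM) divide counts by TMM-scaled library sizes, and per-kilobase levels divide by the exon length in the file. For each comparison the named members are up to 5 of each direction with the largest change among those past the threshold whose group mean reached 5 CPM in a group compared, and other lists name up to 3 of each direction. Other members are given by their levels, and a value without an error beside a named one is outside that rule. Members and lists were chosen with earlier results of these data known. Symbols were matched to a RefSeq gene table for 26530 of 26531 genes, and no sequence is shown. Replicate numbers are shared between groups, but 0 of 36 same-numbered pairs had correlated deviations over 0.1, so the main fit uses no pairing. Deviations within most groups lay near sampling noise, so low correlations cannot exclude a pairing, and a replicate block was run as an alternative.

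Alternatives were upper-quartile scaling, DESeq2 1.42.0, limma-voom (limma 3.58.1), no filter on low counts, a replicate block, all libraries kept separate, both organs in 1 fit, and each library left out. The depth of 17577407 to 24699154 counts per library leaves some members with few counts, whose ratios carry exact intervals that cover counting error only.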

Additional observations from a re-analysis of the deposited data

Results flagged for a closer look

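The members below had T3 effects that differed between the genotypes, or between the organs, by a test of the difference itself (edgeR's quasi-likelihood test, adjusted p under 0.05). They are the members the naming rule picked in each such comparison, and no explanation was weighed.

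Between the genotypes (effect in TRDKO minus effect in WT, log2 scale), the positive differences in intestine were 2.38 for pck1, 1.41 for gck, 1.29 for fbp1, 1.17 for pc.2 and 1.07 for pfkm. The negative ones were -2.27 for eno3, -0.78 for aldoc, -0.54 for pdk1, -0.52 for pklr and -0.47 for tpi1. In tail the positive differences were 3.40 for pck1, 1.41 for slc2a1, 1.25 for pdk4, 0.93 for hk1 and 0.92 for pfkfb3. The negative ones were -0.97 for pklr, -0.96 for fbp2, -0.86 for pgam2, -0.75 for pgk1 and -0.70 for pfkfb4. The gene pck1 had the highest difference in both organs among these, and pklr was negative in both.

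Between the organs (effect in tail minus effect in intestine, log2 scale), the positive differences in WT were 1.54 for pc.2, 1.49 for gck, 1.39 for pfkfb4, 1.10 for pfkfb3 and 0.81 for pgk1. The negative ones were -1.81 for eno3, -1.39 for pck1, -0.94 for hk2, -0.61 for pdk1 and -0.56 for aldoa. In TRDKO the positive differences were 1.34 for hk2, 1.31 for pfkfb3, 0.60 for eno3, 0.56 for slc2a1 and 0.54 for pfkfb4. The negative ones were -4.53 for slc2a5, -1.60 for fbp2, -1.10 for fbp1, -0.91 for pfkm and -0.86 for pck2. The value for slc2a5 is a fitted one that depends on the prior count, because tail libraries with T3 held no counts of it, and it is no bound. That for fbp2 rests on few intestine counts, 18 in all in TRDKO control. Its T3 effect in TRDKO intestine alone, 1.01, did not pass, though it did without intestine TRDKO T3 replicate 3 (1.05). The calls for gck and hk2 in WT were lost when 1 of some tail libraries was left out. These comparisons share their control and T3 libraries, so they are not independent of each other.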

How the results depend on the processing

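Every alternative left the number of genes called and of members called within 1.5 times the reported number, in 70 comparisons of each without and 90 with a library left out. The members' median log2 change was less stable. It shifted by at least the median standard error of the members in 8 comparisons without and 5 with a library left out, and by less in 62 and 85. Over the members' own fold changes, 1813 kept their direction and side of the threshold, 64 no longer passed and 3 turned sign, with 2202, 156 and 0 when a library was left out. The 3 were differences of T3 effects in tail under upper-quartile scaling, where gpi stood at -0.000159, pdhb at -0.0155 and pdk1 at -0.0169. The cause was not tested.

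With a library left out, the members called ranged from 20 to 23 for T3 in WT intestine, 21 to 32 for T3 in TRDKO intestine, 24 to 26 for the genotype difference in intestine and 24 to 30 for the difference of effects there. In tail the ranges were 28 to 29, 24 to 25, 29 to 30 and 24 to 28. The upper ends of 32 and 30 came without intestine TRDKO T3 replicate 3. The replicate block, run with tail WT control libraries kept separate, called 9238 genes for T3 in WT intestine, 6060 for T3 in TRDKO intestine, 8773 and 7899 for the genotype difference and the difference of effects there, and 11731, 8952, 12373 and 11174 in tail. It ended the calls of aldoc and pkm for T3 in WT intestine. Genes under about 5 CPM, such as tail gck, hk2 and slc2a3, are limited by depth.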

Other observations

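Counts over the lists below stand beside the share of all genes called in the same comparison. With T3 in WT intestine 12 of 35 regulators of glucose metabolism tested rose and 16 fell, and in WT tail 10 rose and 19 fell, 80% and 82.9% called beside 60.5% and 68.9% of all genes. In tail the difference of effects between the genotypes was positive for 21 and negative for 11, 91.4% beside 65.6%. The insulin receptor gene insr changed with T3 in WT by -1.59 ± 0.31 in intestine (edgeR adjusted p = 0.000652) and -2.30 ± 0.07 in tail (edgeR adjusted p = 4.2e-45). The transcription factor gene cebpb changed by -1.77 ± 0.07 and -1.77 ± 0.03 in the same order (edgeR adjusted p = 3.18e-11 and 2.78e-71). Its relative cebpa, known in mammals for liver and fat gene programmes, rose in WT tail by 2.42 ± 0.03 (edgeR adjusted p = 2.35e-72). In TRDKO intestine T3 raised mlxipl, which encodes a carbohydrate-sensing factor, by 1.03 ± 0.11 (edgeR adjusted p = 4.46e-06) and the gut and liver factor hnf4a by 0.82 ± 0.07 (edgeR adjusted p = 2.72e-07).

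With T3 in WT tail 12 of 18 citrate cycle genes fell and 3 rose, 83.3% called beside 68.9% of all genes. In TRDKO tail 7 fell and 3 rose with T3, 55.6% beside 52.9%. Without hormone 15 of 18 were lower and 1 higher in TRDKO tail than in WT tail, 88.9% beside 73.1%. Among them aco1, whose product in mammals also senses iron, changed with T3 in WT tail by -1.30 ± 0.02 (edgeR adjusted p = 2.08e-63). In WT intestine 3 rose and 8 fell with T3, 61.1% beside 60.5%. The other genes of the pyruvate dehydrogenase complex and its regulation gave 3 rises and 4 falls of 9 in WT intestine and 1 and 7 in WT tail, 77.8% and 88.9% called. The kinase gene pdk3 rose in WT intestine by 1.40 ± 0.19 (edgeR adjusted p = 2.47e-05) and changed in WT tail by -1.06 ± 0.06 (edgeR adjusted p = 1.14e-27).

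In intestine TRDKO control 10 of 19 erythrocyte markers were higher than in WT control and 4 lower, with 15 and 1 of 23 endothelial and 12 and 1 of 15 neuronal and glial markers. That is 73.7%, 69.6% and 86.7% called beside 57.8% of all genes. In tail the counts were 13 and 4 of 19, 12 and 7 of 23, and 6 and 10 of 22, which is 89.5%, 82.6% and 72.7% beside 73.1%. Of 19 exocrine pancreas markers tested in intestine, 17 were higher and 1 lower in TRDKO control, 94.7% called beside 57.8%. Their median log2 difference was 11.48, and their part in the members was not tested.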
